A study of Rattus norvegicus with 30 samples.

Results

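Cd74, RT1-Da and B2m are 3 genes of antigen presentation, followed here in the intermediate gray matter of the rat cervical spinal cord after a thoracic spinal cord injury. They were chosen by identifier (ENSRNOG00000018735 for Cd74, ENSRNOG00000032844 for RT1-Da and ENSRNOG00000017123 for B2m), and make up 3 of the 32545 gene identifiers counted in every library. The symbols came with the choice of the genes: neither the count tables nor the reference table used here pairs an identifier of this kind with a symbol. All 3 passed the filter on low counts and were among the 14801 genes tested. The rule that picks them is by identifier and uses no measured value, although earlier results of these data were known when the genes were proposed.

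The 30 libraries were made from 1 rat each, all adult female Long Evans rats (strain label Long Evans Crl:LE) over 10 weeks of age. Injured rats (SCI) were taken at 1, 3, 6 and 12 weeks after a thoracic lesion, and rats with sham surgery at 1 and 12 weeks, with 5 rats in each of the 6 groups. All rats were perfused with cold Ringer solution and heparin before the laminae IV to VII of both sides were dissected at the third cervical vertebral level, well above the lesion. The 5 rats of a group had been picked from a larger group on RNA quality and quantity, and no further description of the lesion was used here. Library totals ran from 6459555 to 37410793 counts. The library of sham 1 week replicate 1 has conflicting labels, sham by its title and injured by its surgery and source fields, and was kept as sham. Defining markers of the tissue and of immune cells could not be looked up, because the identifiers carry no symbols.

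Class II molecules of the major histocompatibility complex (MHC; called RT1 in the rat) show peptides from the endosomes to CD4+ T cells. Their alpha and beta chains are assembled with Cd74, the invariant chain, which fills the peptide groove and steers the complex to the endosome, and which also serves as a surface receptor for the cytokine Mif. RT1-Da encodes the alpha chain of the rat class II molecule RT1-D, the counterpart of human HLA-DRA. In the healthy central nervous system class II is largely limited to border macrophages and few microglia, and it is induced in microglia by interferon gamma through the transactivator Ciita. B2m is the light chain of the class I molecules, which present cytosolic peptides to CD8+ T cells on nearly all nucleated cells, and it also pairs with class I-like proteins such as the neonatal Fc receptor.

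The stretch before the start of each gene is shown as a description only, and its relation to the levels was not tested. RefSeq sequences on GRCr8 were matched by symbol for 3 of the 3 genes, and each is the 250 bases before the start that the RefSeq table uses, on the plus strand, at chr18:56526956-56527205 for Cd74, chr20:4515165-4515414 for RT1-Da and chr3:129549080-129549329 for B2m. Capitals mark matches to 4 motifs searched on both strands: the CCAAT box (CCAAT), the start of the class II X box (CTAGNAAC), the interferon-stimulated response element (GAAA, any 2 bases, GAAA) and the NF-kappaB consensus.
Cd74: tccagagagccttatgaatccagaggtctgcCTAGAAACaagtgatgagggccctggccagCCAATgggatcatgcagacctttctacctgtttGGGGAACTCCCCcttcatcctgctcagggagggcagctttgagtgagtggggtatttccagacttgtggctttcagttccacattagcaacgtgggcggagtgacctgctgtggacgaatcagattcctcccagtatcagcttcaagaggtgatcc
RT1-Da: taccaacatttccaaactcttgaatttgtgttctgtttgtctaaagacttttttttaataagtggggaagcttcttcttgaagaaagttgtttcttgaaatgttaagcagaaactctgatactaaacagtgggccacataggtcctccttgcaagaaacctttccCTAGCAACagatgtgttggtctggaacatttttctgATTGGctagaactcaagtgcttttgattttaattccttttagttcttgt
B2m: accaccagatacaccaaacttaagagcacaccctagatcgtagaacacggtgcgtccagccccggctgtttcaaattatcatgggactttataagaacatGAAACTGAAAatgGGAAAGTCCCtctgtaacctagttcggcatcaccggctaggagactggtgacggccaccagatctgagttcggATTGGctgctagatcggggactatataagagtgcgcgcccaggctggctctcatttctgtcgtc
The letters of the X box start were chosen after these sequences had been read. In Cd74 the X box start began 219 bases before the gene start and the CCAAT box 189 bases before it. In RT1-Da the X box start began 85 bases and a CCAAT box on the opposite strand (ATTGG) 49 bases before the start, so the order of both motifs was the same. Both motifs together occurred in 0.998% of 33469 RefSeq windows of this length, the X box start in 2.98% and the CCAAT box in 34.0%. Because the X box letters were chosen with these sequences in view, the shares that involve them do not measure how unusual the matches are. B2m held a CCAAT box on the opposite strand 64 bases before its start and no match to the X box letters in this window. For the same reason, the missing match does not show whether B2m has an X box. It held the interferon-stimulated response element 150 bases before the start, a motif found in 3.41% of windows, next to an NF-kappaB match on the opposite strand (6.33% of windows). Overlapping NF-kappaB matches also lay in Cd74, the farthest of them beginning 156 bases before the start. These matches are letters in a window and not binding sites.

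B2m was the steady member. Levels are in CPM, the read count of a gene relative to the library total, with that total first corrected for library composition by TMM normalization. Over all 30 rats it ran from 220 to 370 CPM with a median of 306 CPM, a span of 1.68-fold. The group means were 302 ± 43.4 CPM (SD, n = 5) in SCI 1 week, 305 ± 54.8 CPM in SCI 3 weeks, 303 ± 30.8 CPM in SCI 6 weeks and 309 ± 57.7 CPM in SCI 12 weeks, against 291 ± 25.7 CPM in sham 1 week and 316 ± 28.3 CPM in sham 12 weeks. Neighbouring means in the order of level, from sham 12 weeks through SCI 12, 3, 6 and 1 weeks to sham 1 week, differed by less than the larger SD of each pair. All 15 pairs of groups overlapped in their ranges. Overlap was common among all genes, since ranges lay apart for 0.561% to 3.51% of them in the pairs of groups where this was counted. Counting error was small for this gene, since each library held between 1909 and 11949 of its reads.

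Cd74 differed widely between rats of the same group. In the order of replicates 1 to 5, the rats of SCI 1 week had 5.37, 3.94, 5.47, 1.37 and 1.47 CPM, those of SCI 3 weeks 7.33, 2.30, 16.1, 11.3 and 6.37 CPM, and those of SCI 6 weeks 12.6, 10.9, 7.88, 7.43 and 11.0 CPM. The rats of SCI 12 weeks had 20.4, 3.92, 6.28, 3.01 and 3.91 CPM. SCI 6 weeks was the most even of the injured groups relative to its mean, and a single rat stood far above the other 4 at 12 weeks. In sham 1 week the values were 6.96, 4.31, 6.43, 11.9 and 3.47 CPM, and in sham 12 weeks 4.99, 2.78, 5.32, 12.7 and 5.17 CPM. Each sham group thus also held a rat well above the other 4. Over the 30 rats Cd74 spanned 14.9-fold, from 18 to 245 reads per library.

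By group mean Cd74 was highest in SCI 6 weeks, with 9.96 ± 2.21 CPM (SD, n = 5), then 8.68 ± 5.24 CPM in SCI 3 weeks and 7.51 ± 7.31 CPM in SCI 12 weeks. Sham 1 week had 6.61 ± 3.28 CPM, sham 12 weeks 6.19 ± 3.78 CPM and SCI 1 week, the lowest, 3.53 ± 2.01 CPM. Every neighbouring pair in this order overlapped and differed by less than the larger of its SDs. Of the 15 pairs of groups 14 overlapped in their ranges. The exception was SCI 6 weeks, where the lowest rat had 7.43 CPM, against SCI 1 week, where the highest had 5.47 CPM. For that pair of groups the ranges lay apart for 1.24% of all genes.

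RT1-Da, the class II alpha chain, was counted with few reads, between 2 and 86 per library with a median of 19.5. The rats of SCI 1 week had 1.41, 0.33, 1.49, 0.12 and 0.57 CPM, those of SCI 3 weeks 2.15, 0.19, 4.80, 2.89 and 2.01 CPM, and those of SCI 6 weeks 1.91, 2.29, 1.03, 2.48 and 1.92 CPM. The rats of SCI 12 weeks had 2.88, 1.72, 1.11, 1.57 and 1.10 CPM. The lowest values, in SCI 1 week replicate 4 and SCI 3 weeks replicate 2, rest on 2 and 3 reads, with exact 95% Poisson intervals of 0.015 to 0.45 CPM and 0.038 to 0.54 CPM, which cover counting error only. Sham 1 week had 1.80, 1.03, 2.35, 4.78 and 0.69 CPM, and sham 12 weeks 1.52, 1.04, 1.24, 2.74 and 1.2 CPM. RT1 genes form a polymorphic family, and how multiply mapped reads were counted is not given in the sources used here, so this level is uncertain in a way that the intervals do not show.

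The group means of RT1-Da ran from 2.41 ± 1.67 CPM (SD, n = 5) in SCI 3 weeks through 2.13 ± 1.62 CPM in sham 1 week, 1.92 ± 0.56 CPM in SCI 6 weeks, 1.68 ± 0.73 CPM in SCI 12 weeks and 1.55 ± 0.69 CPM in sham 12 weeks to 0.78 ± 0.63 CPM in SCI 1 week. As for Cd74, the lowest mean was that of SCI 1 week. It lay below the next group, sham 12 weeks, by 0.765 CPM, more than the larger SD of that pair, which was 0.688 CPM. That was the 1 neighbouring pair of 15 over the 3 genes whose difference exceeded its SD, and its ranges overlapped. In all 15 pairs of groups the ranges of RT1-Da overlapped, as they did for most genes in the pairs where this was counted.

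**Figure D1:**
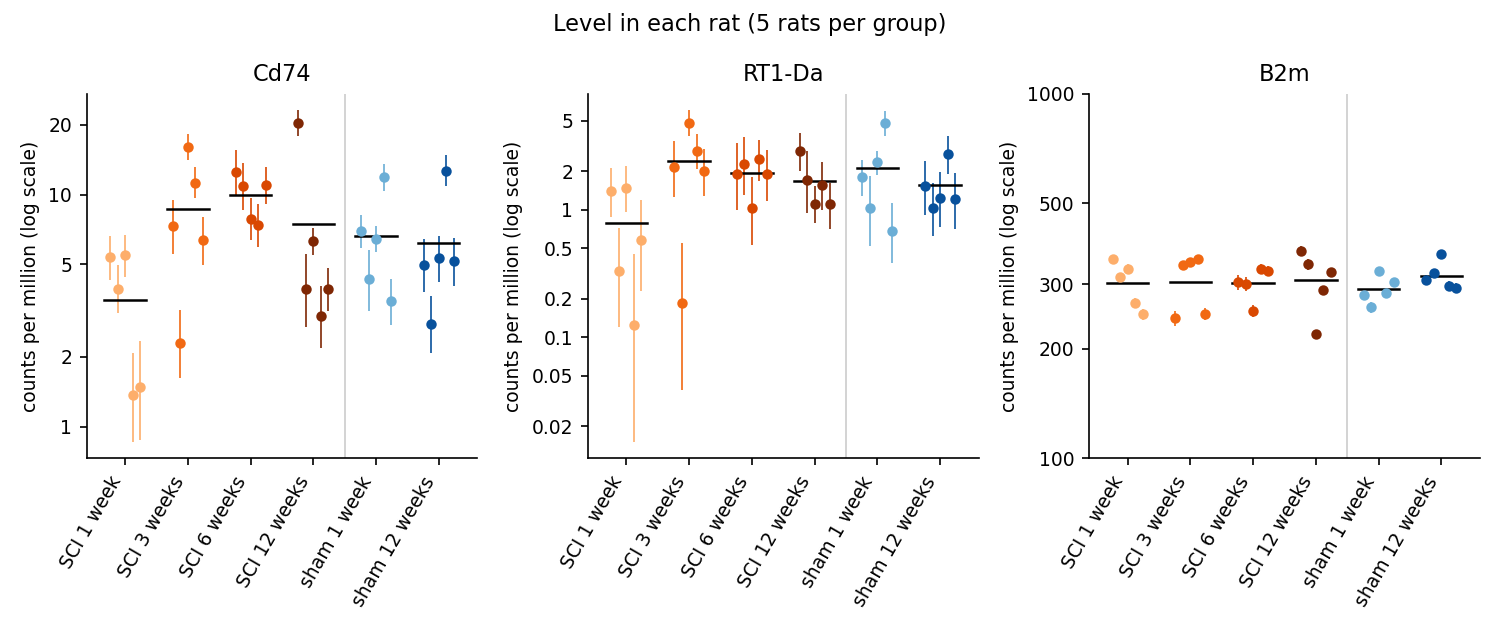
Level of Cd74, RT1-Da and B2m in each of the 30 rats (points, CPM on a log axis, replicates 1 to 5 from left to right), with exact 95% Poisson intervals as thin bars and group means as black lines; SCI groups are orange to brown and sham groups blue. Cd74 ranges from 1.37 to 20.4 CPM and RT1-Da from 0.12 to 4.80 CPM with wide overlap of the groups, whereas B2m stays between 220 and 370 CPM.

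The first comparison set injured against sham rats at 1 week. The lower class II means at this time did not pass the test over all genes. Cd74 averaged 3.53 ± 2.01 CPM in SCI 1 week and 6.61 ± 3.28 CPM in sham 1 week (SD, n = 5 each), a log2 fold change of -0.89 with a 95% interval of -2.02 to 0.24 (edgeR, p adjusted over all genes = 0.492). RT1-Da averaged 0.78 ± 0.63 CPM in SCI 1 week and 2.13 ± 1.62 CPM in sham 1 week, a log2 fold change of -1.44 with an interval of -2.60 to -0.28 (edgeR, adjusted p = 0.238). For B2m the log2 fold change was 0.05 with an interval of -0.20 to 0.31 (edgeR, adjusted p = 0.885). At an adjusted p under 0.05, 0 of the 3 genes were called, against 0.358% of all tested genes. DESeq2 and limma-voom also called 0 of the 3 here and in every later comparison. Of all genes they called 234 and 164 here, and 65 and 20 between SCI 12 weeks and SCI 1 week. In any other comparison they called at most 19 and 7 of all genes. DESeq2 gave no adjusted p for RT1-Da at 1 week, so it could not call the gene with the largest difference of the 3 there. It also gave none for Cd74 and RT1-Da in SCI 6 weeks against both sham groups, in sham 12 weeks against sham 1 week and in SCI 12 weeks against SCI 1 week. Unadjusted, 1 of the 3 had a p under 0.05, against 13.9% of all genes. The ranges of both groups overlapped for 3 of 3 genes, where they did not for 3.51% of all genes. In bulk tissue, fewer cells that express a gene and less RNA per cell cannot be told apart.

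The size of the differences of Cd74 and RT1-Da moved with single rats. Their sign was the same in all 40 alternatives for RT1-Da and all 41 for Cd74, which are not independent of each other. Without sham 1 week replicate 4, the rat of its group with the most Cd74 and RT1-Da, the log2 fold change of RT1-Da was -0.94 and that of Cd74 -0.59. Without SCI 1 week replicate 3 they were -1.82 and -1.10. Over all 40 alternatives with an adjusted p for RT1-Da at 1 week that p lay between 0.166 and 0.537 (edgeR and limma-voom, since the DESeq2 test gave none).

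No sham rats were taken at 3 and 6 weeks, so SCI 3 weeks and SCI 6 weeks were set against the average of sham 1 week and sham 12 weeks. Cd74 had a log2 fold change of 0.45 at 3 weeks (interval -0.48 to 1.38; edgeR, adjusted p = 0.853) and of 0.62 at 6 weeks (interval -0.33 to 1.57; edgeR, adjusted p = 0.719). RT1-Da had 0.41 at 3 weeks (interval -0.52 to 1.35; edgeR, adjusted p = 0.872) and 0.07 at 6 weeks (interval -0.93 to 1.08; edgeR, adjusted p = 0.977). Without SCI 3 weeks replicate 3, the highest rat of its group for both genes, the value at 3 weeks was 0.09 for Cd74 and -0.04 for RT1-Da. Without SCI 3 weeks replicate 2, the lowest rat for both, it was 0.71 for Cd74 and 0.73 for RT1-Da. B2m stood at 0.01 and -0.0035 with intervals of -0.21 to 0.23 and -0.22 to 0.22. In each of these comparisons edgeR called 0 of the 3 genes and 0% of all genes. At an unadjusted p under 0.05 it was also 0 of 3, against 7.11% of all genes at 3 weeks and 8.22% at 6 weeks.

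At 12 weeks, Cd74 averaged 7.51 ± 7.31 CPM in SCI 12 weeks and 6.19 ± 3.78 CPM in sham 12 weeks (SD, n = 5 each). Its log2 fold change of 0.27 had an interval of -0.84 to 1.37 (edgeR, adjusted p = 0.975). The value hung on single rats. Without SCI 12 weeks replicate 1 it was -0.48, and without sham 12 weeks replicate 4 it was 0.71. RT1-Da averaged 1.68 ± 0.73 CPM in SCI 12 weeks and 1.55 ± 0.69 CPM in sham 12 weeks, a log2 fold change of 0.07 with an interval of -1.07 to 1.21 (edgeR, adjusted p = 0.996), and without SCI 12 weeks replicate 1 it was -0.21. B2m, with 309 ± 57.7 CPM in SCI 12 weeks and 316 ± 28.3 CPM in sham 12 weeks, had -0.04 with an interval of -0.29 to 0.21. Again edgeR called 0 of 3 genes and 0% of all genes, and 0 of 3 had an unadjusted p under 0.05, against 5.3% of all genes.

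An interaction term compared the injury effects of the 2 times that have sham rats. Its log2 value, the effect at 12 weeks minus that at 1 week, was 1.16 for Cd74 (interval -0.42 to 2.74; edgeR, adjusted p = 0.728), 1.51 for RT1-Da (interval -0.12 to 3.14; edgeR, adjusted p = 0.639) and -0.09 for B2m (interval -0.45 to 0.26; edgeR, adjusted p = 0.933). For Cd74 it was 0.42 without SCI 12 weeks replicate 1 and 1.60 without sham 12 weeks replicate 4. In edgeR 0 of the 3 and 0% of all genes were called, and 0 of 3 had an unadjusted p under 0.05, against 8.38% of all genes. Between sham 12 weeks and sham 1 week the log2 fold change was -0.11 for Cd74 (interval -1.21 to 0.98), -0.48 for RT1-Da (interval -1.58 to 0.61) and 0.12 for B2m (interval -0.13 to 0.37; edgeR, smallest adjusted p of the 3 genes = 0.846). There too edgeR called 0 of 3 and 0% of all genes, with 0 of 3 at an unadjusted p under 0.05, against 8.24%.

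The comparison with the most rats set all 20 injured against all 10 sham rats. Its log2 fold changes were 0.11 for Cd74 (interval -0.56 to 0.79), -0.22 for RT1-Da (interval -0.90 to 0.46) and 0.01 for B2m (interval -0.15 to 0.16; edgeR, adjusted p = 0.916, 0.828 and 0.984 in that order). For B2m this interval corresponds to a fold of 0.902 to 1.12, the narrowest of the 3. For Cd74 the interval reached from 0.677- to 1.73-fold and for RT1-Da from 0.534- to 1.38-fold. Here as well edgeR called 0 of 3 genes and 0% of all genes, with 0 of 3 at an unadjusted p under 0.05, against 13% of all genes.

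Among the injured groups, the means of both class II genes were lowest at 1 week. The medians of Cd74 did not follow that order, with 3.94 CPM in SCI 1 week and 3.92 CPM in SCI 12 weeks, where the mean rests on replicate 1 at 20.4 CPM. A joint test of the 4 injured groups called 0 of the 3 genes, against 0.0338% of all genes (edgeR, adjusted p = 0.739 for Cd74, 0.713 for RT1-Da and 1.000 for B2m), with 0 of 3 at an unadjusted p under 0.05, against 7.14%. Between SCI 12 weeks and SCI 1 week the log2 fold change was 1.04 for Cd74 (interval -0.10 to 2.18; edgeR, adjusted p = 0.503) and 1.03 for RT1-Da (interval -0.18 to 2.24; edgeR, adjusted p = 0.539). There edgeR called 0 of 3 genes, against 0.0811% of all genes, and 0 of 3 had an unadjusted p under 0.05, against 11%. Without SCI 12 weeks replicate 1 the value of Cd74 was 0.30.

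The contrasts of 3 and 6 weeks with 1 week were added after the levels had been seen, so that their selection favours a difference. SCI 6 weeks against SCI 1 week gave a log2 fold change of 1.46 for Cd74 (interval 0.30 to 2.62; edgeR, adjusted p = 0.596) and of 1.27 for RT1-Da (interval 0.03 to 2.52; edgeR, adjusted p = 0.688). SCI 3 weeks against SCI 1 week gave 1.29 for Cd74 (interval 0.15 to 2.43; edgeR, adjusted p = 0.968) and 1.61 for RT1-Da (interval 0.43 to 2.79; edgeR, adjusted p = 0.968). B2m was at 0.0023 and 0.02 in the same contrasts. All of them share the rats of SCI 1 week, as does the comparison with sham rats at that time. After adjustment over all genes, edgeR called 0 of 3 in either contrast and 0% of all genes, whereas 2 of 3 had an unadjusted p under 0.05, against 7.17% of all genes at 6 weeks and 4.61% at 3 weeks. Ranges that do not overlap, as those of Cd74 between SCI 6 weeks and SCI 1 week, were seen in 1.24% of all genes for that pair of groups. Between SCI 3 weeks and SCI 1 week they were seen for 0 of the 3 genes and 0.561% of all genes.

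**Figure D2:**
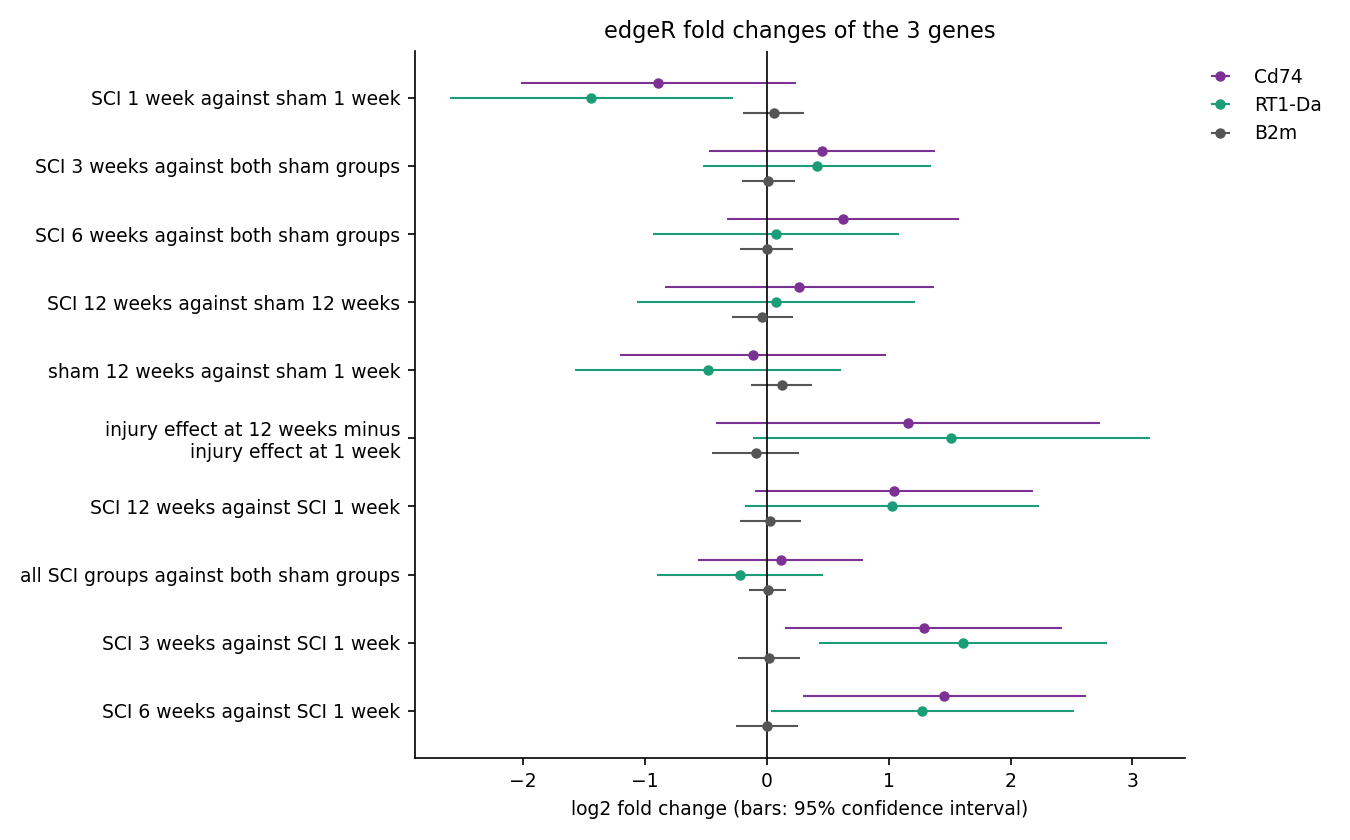
Log2 fold change of Cd74 (purple), RT1-Da (green) and B2m (gray) in each comparison (rows), from the edgeR fit to all 30 libraries, with 95% confidence intervals as bars and the line at 0 marking no difference. The intervals of B2m are narrow and include 0 in every row, while those of Cd74 and RT1-Da are several times wider and lie apart from 0 in the rows of SCI 3 and 6 weeks against SCI 1 week and, for RT1-Da, of SCI 1 week against sham 1 week.

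Cd74 and RT1-Da were among the most variable genes between rats of the same group. The dispersion that edgeR estimates beyond counting error corresponded to a coefficient of variation of 56.9% for Cd74 and 57.3% for RT1-Da, against 13.5% for B2m and a median of 11.5% over all tested genes. By this measure 119 of the 14801 genes were more variable than Cd74 and 114 more variable than RT1-Da, while 5902 exceeded B2m. The trend fitted through genes of the same level was 17.2% for Cd74, 27.8% for RT1-Da and 8.61% for B2m, so all 3 lay above it. Counting error alone would give 11.3% at the median count of Cd74, 22.6% at that of RT1-Da and 1.52% at that of B2m.

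On the log2 CPM scale the SD within groups was 0.84 for Cd74, 0.94 for RT1-Da and 0.21 for B2m. The 6 groups accounted for 30.5% of the variance of Cd74, 25.7% of that of RT1-Da and 3.49% of that of B2m. The median gene had 19.2%, and groups without any effect would give 17.2% on average.

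**Figure D3:**
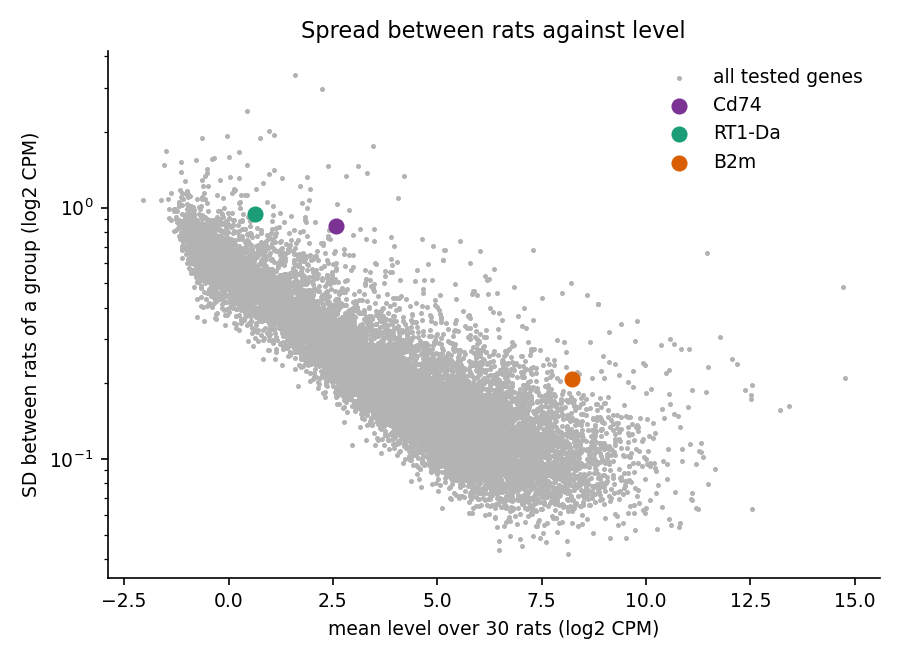
SD between rats of the same group (log2 CPM, log axis) against the mean level over 30 rats (log2 CPM) for the 14801 tested genes (gray), with Cd74, RT1-Da and B2m in color. Cd74, at an SD of 0.84, and RT1-Da, at 0.94, lie above most genes of their level, and B2m, at 0.21, lies in the upper part of its own.

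Cd74 and RT1-Da varied together from rat to rat within the groups. After the mean of each group had been subtracted, their log2 CPM correlated across the 30 rats with a Pearson r of 0.80 (permutation of rats within groups, two-sided p = 1e-05, the smallest that 100000 permutations can give, adjusted p = 3e-05 over the 3 pairs of genes) and a Spearman rho of 0.73 (permutation p = 9e-05, adjusted p = 0.00027). Without the 2 rats farthest from the median of Cd74, SCI 12 weeks replicate 1 and SCI 3 weeks replicate 2, r was 0.75 over 28 rats (permutation p = 0.0004). In 5 of the 6 groups the rat with the most Cd74 was also the rat with the most RT1-Da, and in 4 of 6 the lowest rat was the same. In SCI 6 weeks, the exception for the highest rat, replicate 1 led for Cd74 and replicate 4 for RT1-Da.

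B2m did not pass the same test. Its r was 0.29 with Cd74 (permutation p = 0.223, adjusted p = 0.324; rho 0.32, permutation p = 0.144) and 0.24 with RT1-Da (permutation p = 0.324, adjusted p = 0.324; rho 0.36, permutation p = 0.0786). Without the 2 rats farthest from the median of RT1-Da, SCI 3 weeks replicate 2 and SCI 1 week replicate 4, the r with RT1-Da was 0.43 (permutation p = 0.0268, unadjusted). In 1 of the 6 groups, SCI 12 weeks, the rat with the most Cd74 also had the most B2m. Whether the r of Cd74 with RT1-Da exceeds those with B2m was not tested.

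Depth did not pass a test as a companion of these deviations. With the log2 library total, r was -0.06 for Cd74, -0.17 for RT1-Da and 0.04 for B2m (permutation p = 0.784, 0.381 and 0.861, each with an adjusted p of 0.861 over 3 relations; rho -0.09, -0.22 and 0.20). Without the 2 rats farthest from the median of each gene, r was 0.14, -0.09 and 0.29.

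**Figure D4:**
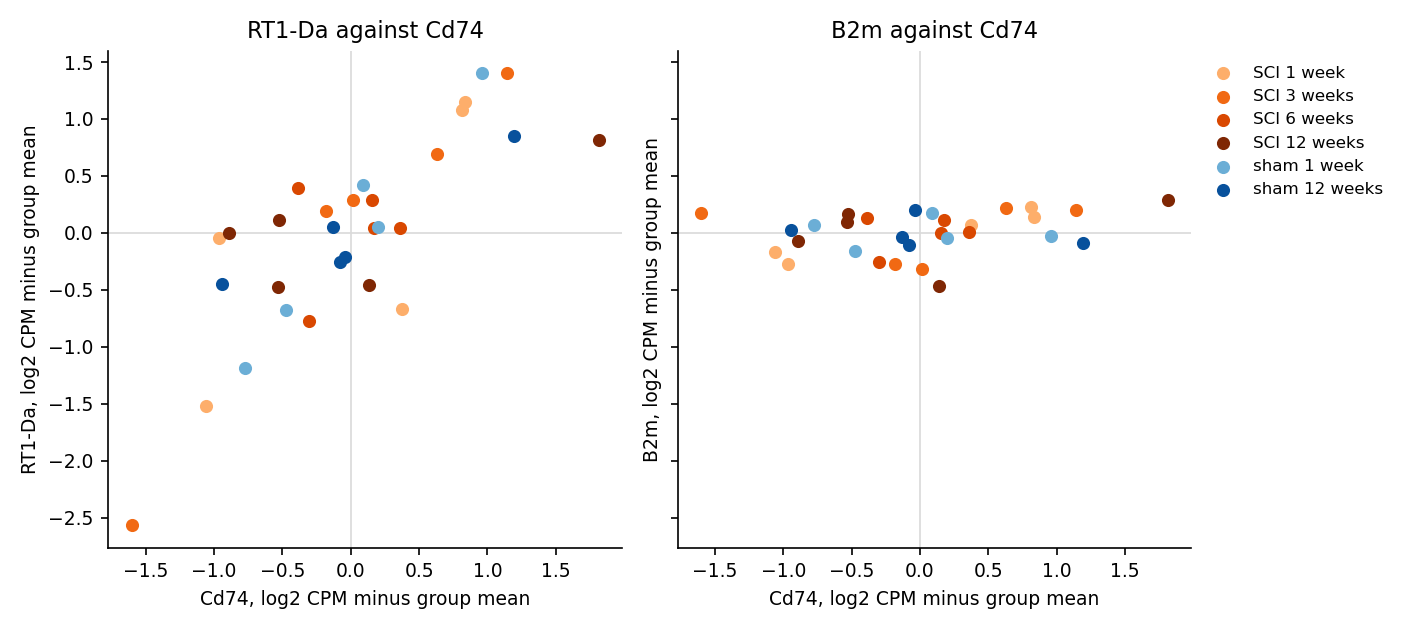
Deviation of each of the 30 rats from its group mean (log2 CPM) for RT1-Da (left) and B2m (right) on the vertical axis against Cd74 on the horizontal axis, with SCI groups in orange to brown and sham groups in blue. Points of RT1-Da follow Cd74 (r = 0.80) from SCI 3 weeks replicate 2 at the lower left to SCI 3 weeks replicate 3 and sham 1 week replicate 4 at the upper right. B2m, drawn on the same scale, stays close to 0 because its SD is small (0.21 against 0.94 for RT1-Da). Its r with Cd74 was 0.29, and the difference between both r values was not tested.

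The reads of RT1-Da per 100 reads of Cd74, a measure that needs no scaling between libraries, had a median of 25.7 over the 30 rats and ran from 8.11 to 52.3. Group medians were 26.2 in SCI 1 week, 29.3 in SCI 3 weeks, 17.4 in SCI 6 weeks, 28.1 in SCI 12 weeks, 25.8 in sham 1 week and 23.4 in sham 12 weeks. SCI 12 weeks replicate 1, the rat with the most Cd74, had 14.1 (exact 95% binomial interval, 9.55 to 20.3), and SCI 12 weeks replicate 4 had 52.3 (interval 30.1 to 88.5). These intervals cover counting error only, and the 2 rats were picked for their values, so nothing is read from the distance between them. The proportion is used to compare rats only, since the lengths of both transcripts enter it.

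Among the 14800 other tested genes, the one whose deviations over the 30 libraries were most like those of Cd74 was RT1-Da, and the one most like RT1-Da was Cd74 (r = 0.80 as above). Next to Cd74 came ENSRNOG00000030729 (r = 0.72), and next to RT1-Da came ENSRNOG00000031090 (r = 0.68). For B2m the most alike were ENSRNOG00000005884 (r = 0.86) and ENSRNOG00000015573 (r = 0.85). An r over 0.7 was reached by 3 genes with Cd74 and 1 gene with RT1-Da, and by 149 genes with B2m, for which another 147 lay under -0.7. Counting error lowers an r, and at the median count it was 11.3% for Cd74, 22.6% for RT1-Da and 1.52% for B2m. No such count was made for other genes of the same level, so these counts are not compared between the 3 genes. These are descriptions over libraries that also share depth and composition, and the other identifiers could not be named.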

How the data were processed

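Per the labels' protocols, column-purified, DNase-treated RNA went into strand-specific libraries after removal of ribosomal RNA. Each library has a table of deposited counts, whole reads per gene with no normalization. The submitters' processing notes name STAR 2.5.3a, featureCounts, Subread, Trimmomatic and bcl2fastq 2.19.05, and the build Rnor_6.0. No source used here gives the annotation, strand setting or handling of multiply mapped reads, so genes with an antisense partner or a near-identical copy are uncertain.

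Groups and replicate numbers came from the titles. One quasi-likelihood model of the 6 groups, with no covariates, was fitted to the deposited counts (edgeR 4.0.16, R 4.3.3; filterByExpr, TMM, robust estimation), with Benjamini-Hochberg adjustment over 14801 genes and a threshold of 0.05. The 95% intervals come from each log2 fold change and the F value of its test. For correlations, log2 CPM (prior count 2) was permuted 100000 times within groups (Python 3.11.15, numpy 2.4.6, scipy 1.17.1). Both were tested on simulated data. Within groups, the chi-square per degree of freedom of 60 pairs of libraries was 4.76 at the lowest and 45.9 at the highest, above sampling noise in each. Labels describe separate rats and name no batch.

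The genes are set by identifier, but they, the lists and the tests were proposed with earlier results of these data known. Named genes are the 3 members and, per member, the most alike of the tested genes, at most 2 of them without a symbol. Planned lists of related genes and of cell type markers were not run, because 0 identifiers could be paired with a symbol. Alternatives were DESeq2 1.42.0 size factors and test, limma-voom (limma 3.58.1), other filters, a fit without robust estimation, a replicate block, depth as a covariate, other references, only the compared groups, both readings of the library with conflicting labels, and each library left out.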

Additional observations from a re-analysis of the deposited data

Results flagged for a closer look

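A rat far from the other 4 of its group was sought in 18 sets (3 genes in 6 groups, CPM) by comparing its gap to the nearest rat with the range of the group. Chance at 1 in 20 gives 0.9 such sets, and 3 were found. Cd74 in SCI 12 weeks replicate 1 stood at 20.4 CPM, with the next rat at 6.28 CPM, a gap of 0.812 of the range where 0.71 is the critical value. Cd74 in sham 12 weeks replicate 4 stood at 12.7 CPM, with a gap of 0.744 of the range. RT1-Da in the same rat, sham 12 weeks replicate 4, stood at 2.74 CPM, with a gap of 0.715 of the range. The last 2 are not separate from each other, since both genes were measured in 1 rat. On the log2 scale none of these 3 passed, with ratios of 0.616, 0.573 and 0.605, and 1 other did, RT1-Da in SCI 3 weeks replicate 2 (0.732), which rests on 3 reads.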

How the results depend on the processing

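In 1361 recomputed tests of the 3 genes over 11 comparisons (33 results), 0 passed the threshold, and the smallest adjusted p was 0.166. Calls were few among all genes too, from 0 to 234 over the settings at 1 week, the comparison with the most. A count of 0 for 3 genes is therefore not particular to them. DESeq2 gave no adjusted p for 7 of its 33, each of them for Cd74 or RT1-Da. The alternatives are not independent of each other, and wide intervals limit what the class II genes could show. The correlation of Cd74 with RT1-Da passed in all 33 alternatives, with r from 0.75 to 0.83. The 18 group means were recomputed in 3 ways (library totals or DESeq2 size factors in place of TMM, and without the library with conflicting labels). They moved by more than their SD in 0 of 54 values. The last way could not give such a move. It takes a rat from a single group, and leaving out a rat cannot move a group mean by more than its SD. For the changes of scaling, the SD between rats is a wide limit. The count of 0 therefore does not show that the means are robust. The SD within groups ran from 0.752 to 0.863 for Cd74, from 0.757 to 1.07 for RT1-Da and from 0.182 to 0.212 for B2m.

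The sign of a log2 fold change turned in 82 of the 1238 tests that have one, 64 of them with 1 library left out, and the cause was not tested. Outside the left-out libraries, B2m in SCI 6 weeks against SCI 1 week, near 0 throughout, was -0.0061 without a filter, -0.0012 with a filter at 1 CPM, -0.0010 without the library with conflicting labels and -0.00043 with only the compared groups. In all SCI groups against both sham groups B2m was -0.0016 without the library with conflicting labels, -0.0058 with it counted as injured, -0.054 against sham 12 weeks only and -0.010 in limma-voom, and RT1-Da was 0.021 against sham 12 weeks only. At 6 weeks RT1-Da was -0.16 with depth as a covariate and -0.17 against sham 1 week only, and B2m 0.019 and 0.056. At 3 weeks B2m was -0.050 against sham 12 weeks only and -0.00011 in limma-voom, and RT1-Da -0.028 in limma-voom. In limma-voom RT1-Da was also -0.030 in SCI 12 weeks against sham 12 weeks, and B2m -0.0020 in SCI 12 weeks against SCI 1 week.

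With each library left out in turn, the log2 fold change of B2m ran from -0.010 to 0.114 at 1 week, from -0.044 to 0.083 at 3 weeks, from -0.040 to 0.056 at 6 weeks and from -0.112 to 0.063 at 12 weeks. It ran from -0.17 to 0.0087 in the interaction, from -0.050 to 0.128 in SCI 12 weeks against SCI 1 week, from -0.014 to 0.032 in all SCI against both sham groups, and from -0.044 to 0.092 and -0.059 to 0.065 in SCI 3 and 6 weeks against SCI 1 week. RT1-Da ran from -0.036 to 0.726 at 3 weeks, from -0.058 to 0.318 at 6 weeks, from -0.21 to 0.38 at 12 weeks, from -0.79 to 0.019 between the sham groups and from -0.34 to 0.025 in all SCI against both sham groups. Cd74 ran from -0.48 to 0.71 at 12 weeks, from -0.56 to 0.20 between the sham groups and from -0.075 to 0.331 in all SCI against both sham groups. The r of RT1-Da with B2m ran from 0.18 to 0.46 and passed without SCI 3 weeks replicate 2. That of Cd74 with B2m was 0.16 without SCI 12 weeks replicate 1 and 0.42 without SCI 3 weeks replicate 2 (permutation, adjusted p = 0.0662). The r with library total ran from -0.14 to 0.039 for Cd74 and from -0.064 to 0.386 for B2m.

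The replicate number of the titles was used as a replicate block. The log2 fold change of RT1-Da at 1 week was then -1.34 and that of Cd74 -0.85 (edgeR, adjusted p = 0.256 and 0.497), and the block changed no call of the 3 genes. Same-numbered libraries deviated together with a median r of 0.0065 over 75 pairs, against -0.0012 for other pairs. Of the 75 pairs 8 were over 0.1, with 0.146 as the highest. Of 30 libraries, 6 were most like one of their own number. No pairing by number was seen in these values, and a small shared effect was not tested.

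Counts of all genes called moved more. The 53 genes called at 1 week were 0 with the library with conflicting labels counted as injured and 234 in DESeq2. The 12 between SCI 12 weeks and SCI 1 week ranged from 0 (without SCI 1 week replicate 3) to 65 and the 5 among the injured groups from 0 (same reading of the labels) to 19, both highest in DESeq2, and comparisons with 0 calls reached at most 14.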
